A study of Mus musculus with 6 samples.

Results

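Mir143 and Mir145a are the 2 miRNA hairpins of a cluster on mouse chromosome 18, and they were taken by name as 2 of the 1155 rows of a miRNA count table. The table covers mouse embryonic fibroblasts, connective tissue cells grown from embryos, with 3 libraries from Fbxw7 KO cells and 3 from WT cells, which the sample labels call MUT and WT. All 6 libraries came from cells grown in DMEM with fetal bovine serum and non-essential amino acids, and an Illumina TruSeq protocol for miRNA-seq was used. FBXW7 is the part of an SCF ubiquitin ligase that recognises proteins to be degraded, among them Myc, Notch, cyclin E, Jun and KLF5. The labels do not give the way Fbxw7 was removed or the age of the embryos. They also leave it unsaid whether replicates are separate embryos, separate cultures or repeats of one culture, so a p-value here speaks for the scatter of these 6 libraries, and that scatter may be technical. Fbxw7 RNA itself was not analysed here.

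The pair is a hallmark of mesenchymal cells and smooth muscle. In mice both hairpins are cut from a shared primary transcript that serum response factor and its partner myocardin switch on, and Notch and TGF-beta signalling are also known to raise it in smooth muscle cells. In mouse smooth muscle, miR-145 represses KLF4 and KLF5, and miR-143 represses ELK1, which together favour the contractile state. In the mouse gut the pair is made by fibroblasts and smooth muscle and not by the epithelium.

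Mir143 occupies chr18:61649196-61649258 and Mir145a chr18:61647825-61647894, both on the minus strand of mm10, with 1301 bases between them. RefSeq places both within the span of Carmn, the long non-coding host RNA of the cluster, whereas GENCODE M21 ends Carmn 366 bases before Mir143 on that strand and leaves both hairpins outside its gene models. Bvht, a lincRNA on the opposite strand that is known from heart development, ends 352 bases from Mir145a. No other row of the count table overlaps either hairpin, so neither could lose reads to an overlapping row. The nearest rows on the chromosome are Mir378a, 249.9 kb away, and Mir122, 3599.6 kb away on the other side.

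The libraries held 2932439 to 3753353 counts in Fbxw7 KO and 3707576 to 5019700 in WT. Of the 1155 rows, 283 passed the filter on low counts and were tested, both hairpins among them. Along the first principal component, with 65.1% of the variance, the libraries parted by genotype. Along the second, with 18%, Fbxw7 KO replicate 3 scored −6.24 while Fbxw7 KO replicates 1 and 2 scored 2.89 and 3.50, and some of the values below are also given without that library. Levels are in CPM, counts rescaled to a common library total after the totals were adjusted by TMM factors, which assume that most miRNAs do not change. The count of a row merges both arms of its hairpin. In bulk libraries, fewer cells that make a miRNA and less of it per cell cannot be told apart.

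The cluster is set below beside other miRNAs that are known to act on smooth muscle. Beside it also stand a list of muscle miRNAs built around targets of serum response factor and a list for p53. The last holds 3 hairpins whose processing p53 is known to help in human cells. Mir15a, Mir15b and Mir16-2 were added to it as relatives. Sequences are shown for the members of these lists that passed the test between genotypes, of which 4 share a seed, with Mir21a, the miRNA closest to Mir143 in level, and Mir16-1 for comparison. They are mature sequences from RefSeq (GRCm38.p6), 5′ to 3′, with the seed, bases 2 to 8, in capitals.
miR-21a-5p: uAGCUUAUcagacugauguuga
miR-10a-5p: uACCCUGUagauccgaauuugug
miR-29a-3p: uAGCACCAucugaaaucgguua
miR-195a-5p: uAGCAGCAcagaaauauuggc
miR-15a-5p: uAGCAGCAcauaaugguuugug
miR-15b-5p: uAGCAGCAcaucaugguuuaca
miR-16-5p: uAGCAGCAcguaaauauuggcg
The last sequence is made by both Mir16-1 and Mir16-2, so reads of this arm match both places and the counts of both rows are uncertain. Mir195a, Mir15a, Mir15b, Mir16-1 and Mir16-2 share the seed AGCAGCA, through which this family represses cyclins.

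Mir143 was one of the 2 most abundant miRNAs in every library and had nearly the same level in both genotypes. It had 222577, 216728 and 225949 CPM in Fbxw7 KO replicates 1 to 3, against 207622, 241182 and 228631 CPM in WT replicates 1 to 3. The Fbxw7 KO values lie inside the range of the WT values, and the WT libraries are the more scattered, with WT replicate 1 the lowest of the 6 and WT replicate 2 the highest. The means were 221751 ± 4666 CPM in Fbxw7 KO and 225812 ± 16957 CPM in WT (SD, n = 3 each). The log2 fold change of Fbxw7 KO over WT was −0.03 (SE 0.10, edgeR quasi-likelihood adjusted p = 0.883), a fold of 0.982 with a 95% interval of 0.838 to 1.15. The sign of this small value turned with upper-quartile factors (0.011), with library totals alone (0.025) and without WT replicate 2 (0.037). Only 9 of the 283 tested miRNAs had a log2 fold change closer to 0.

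Mir145a, from the same primary transcript, was much less abundant and was higher in each Fbxw7 KO library than in any WT library, but the difference did not pass the test. It had 3630, 3662 and 4775 CPM in Fbxw7 KO replicates 1 to 3, against 3361, 3063 and 3384 CPM in WT replicates 1 to 3. The gap between the groups was narrow, with 3630 CPM in the lowest Fbxw7 KO library beside 3384 CPM in the highest WT library, and Fbxw7 KO replicate 3 stood well above the other libraries. The means were 4022 ± 652 CPM in Fbxw7 KO and 3269 ± 179 CPM in WT (SD, n = 3 each). The log2 fold change was 0.30 (SE 0.15, edgeR adjusted p = 0.178), a fold of 1.23 with a 95% interval of 0.979 to 1.55. Without Fbxw7 KO replicate 3 it was 0.17 (SE 0.11, adjusted p = 0.332). Among all tested miRNAs, 25.4% passed the test (15.2% higher and 10.2% lower in Fbxw7 KO), and for 23.7% every Fbxw7 KO library stood above every WT library (43.8% did not overlap in either direction), so the separation seen for Mir145a is common in this comparison.

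**Figure D1:**
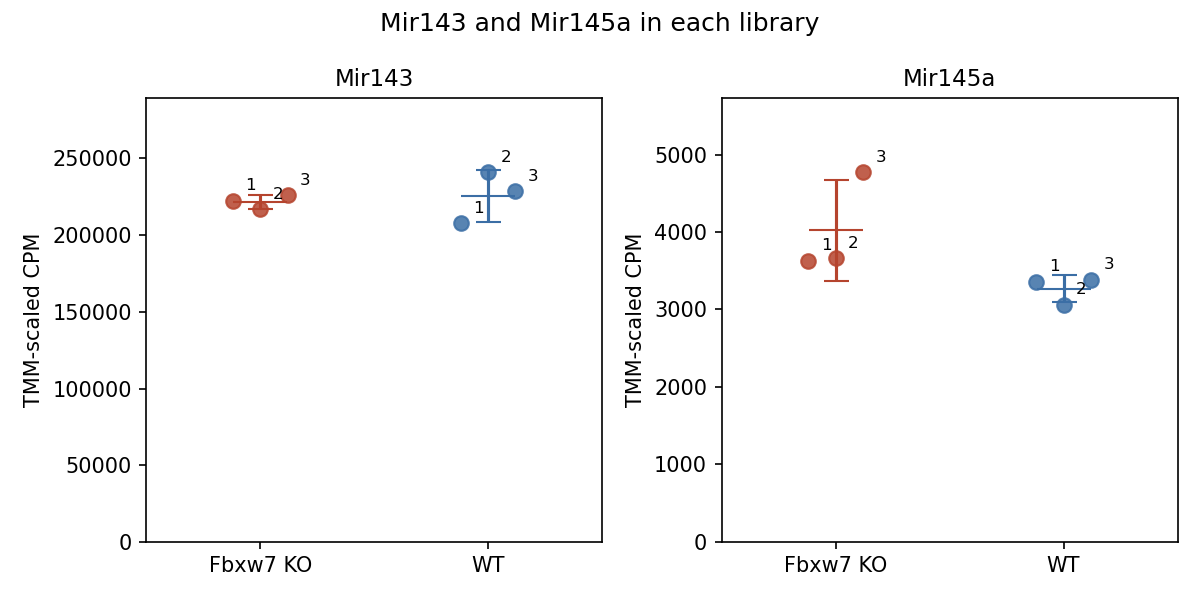
TMM-scaled CPM of Mir143 (left) and Mir145a (right) in each library, with the replicate number beside each point and the mean and SD (n = 3) as a bar with whiskers; both axes start at 0. The Fbxw7 KO points of Mir143 lie between 216728 and 225949 CPM, within the WT points, and those of Mir145a lie above the WT points, led by Fbxw7 KO replicate 3 at 4775 CPM.

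The spread of Mir143 between libraries was small compared with that of other miRNAs, though far above counting error. Its SD within a genotype on the log2 scale was 0.08, the 15th smallest of the 283 tested miRNAs, and that of Mir145a was 0.17, the 78th smallest. Counting error for Mir143 was at most 0.125% of its value in any library, well under the differences between libraries. For Mir145a it was at most 0.963%. Fbxw7 KO replicates 1 and 2 (3630 and 3662 CPM) and WT replicates 1 and 3 (3361 and 3384 CPM) differed by no more. The other differences between libraries in Mir145a were larger. In shares of all counts, Mir143 held 22.5%, 21.8% and 23.5% in Fbxw7 KO replicates 1 to 3 and 20.6%, 22.2% and 23.7% in WT replicates 1 to 3, each with a 95% Wilson half-width of at most 0.0472 percentage points. The difference in means was 0.39 percentage points (exact 2-sided permutation p = 0.8). Its direction is not settled, since it was −0.07 without Fbxw7 KO replicate 3, −0.39 without WT replicate 1 and −0.71 without the counts of a chromosome 12 miRNA region. Without the counts of Mir21a it kept its direction, at 2.02. The share of Mir145a was 0.366%, 0.368% and 0.497% in Fbxw7 KO and 0.334%, 0.282% and 0.351% in WT, with half-widths of at most 0.00711 percentage points. These groups did not overlap (exact 2-sided permutation p = 0.1, below which a design of 3 against 3 cannot go). Intervals cover counting error only.

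The ratio of the hairpins within a library needs no scaling between libraries. Fbxw7 KO replicates 1 to 3 had 61.3, 59.2 and 47.3 counts of Mir143 for each count of Mir145a, against 61.8, 78.7 and 67.6 in WT replicates 1 to 3. Every Fbxw7 KO library was below every WT library, but Fbxw7 KO replicate 1 and WT replicate 1 were almost equal, while Fbxw7 KO replicate 3 was the lowest and WT replicate 2 the highest. The log2 ratio averaged 5.80 ± 0.20 in Fbxw7 KO and 6.11 ± 0.18 in WT (SD, n = 3 each), a difference of −0.31 (exact 2-sided permutation p = 0.1, the smallest possible, and 0.2 adjusted over the 4 exact tests made). The difference was −0.20 without Fbxw7 KO replicate 3 and −0.22 without WT replicate 2. Because the groups did not overlap, leaving out a library could not have turned its sign. Per length of hairpin, in the FPKM deposited by the authors, the ratio was 62.2 ± 8.38 in Fbxw7 KO and 77.1 ± 9.58 in WT. This is the count ratio rescaled by row length and no separate measurement.

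**Figure D2:**
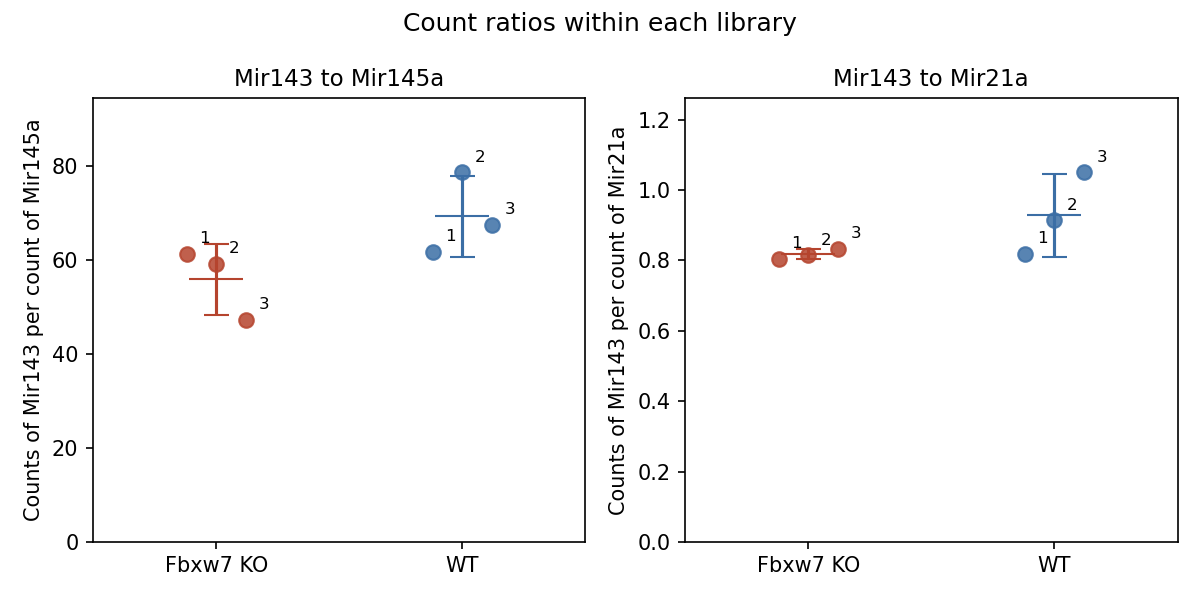
Counts of Mir143 for each count of Mir145a (left) and of Mir21a (right) within each library, with replicate numbers, means and SD (n = 3); both axes start at 0. On the left the Fbxw7 KO points lie between 47.3 and 61.3 and the WT points between 61.8 and 78.7; on the right WT replicate 3, at 1.05, is the only library above 1.

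Mir21a, a fibroblast miRNA that is known to rise in fibrosis, is the nearest neighbour of Mir143 in the order of levels. Fbxw7 KO replicates 1 to 3 had 0.805, 0.815 and 0.833 counts of Mir143 for each count of Mir21a, against 0.819, 0.914 and 1.05 in WT replicates 1 to 3. The Fbxw7 KO libraries were tightly grouped and overlapped the WT libraries at WT replicate 1. The log2 ratio averaged −0.29 ± 0.03 in Fbxw7 KO and −0.12 ± 0.18 in WT (SD, n = 3 each), a difference of −0.18 (exact 2-sided permutation p = 0.2, and 0.267 adjusted over the 4 tests). It was −0.08 without WT replicate 3 and −0.26 without WT replicate 1. Mir21a itself was higher in each Fbxw7 KO library than in any WT library, narrowly, at 265918 to 276496 CPM in Fbxw7 KO and 217444 to 263877 CPM in WT. The same held for 23.7% of all tested miRNAs, and Mir21a did not pass (log2 fold change 0.15, edgeR adjusted p = 0.338). By CPM, Mir143 was below Mir21a in all 3 Fbxw7 KO libraries and in 2 of the 3 WT libraries.

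Row length alone turned that order round, since within a library FPKM differs from the count only by row length and a shared factor. The length of a row is not that of the mature miRNA, 22 bases for miR-21a-5p, so FPKM is no count of molecules. Which order holds per molecule was not tested. The Mir143 row is 63 bases long and the Mir21a row 92, and in FPKM, which divides by row length, Mir143 was first in all 6 libraries. Its FPKM was 3598265, 3405105 and 3643411 in Fbxw7 KO replicates 1 to 3 and 3364986, 3668856 and 3617334 in WT replicates 1 to 3, and no Mir21a value exceeded 3060940 FPKM. Mir27b, the next by FPKM, which is known as a regulator of vessel and fat cell genes, ranged from 536485 to 852898 FPKM over the 6 libraries, so a wide gap separates Mir143 and Mir21a from all others. Mir10a and Mir148a followed in CPM order, with means of 40217 and 34088 CPM over all libraries.

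Mir145a stood in a crowded part of the order. By mean CPM it was 35th. By mean FPKM it was 29th, at 57960 ± 9830 in Fbxw7 KO and 46380 ± 3870 in WT (SD, n = 3 each). Its neighbours by FPKM were Mir34c, a p53-activated miRNA, at 67700 ± 12000 FPKM in Fbxw7 KO and 37670 ± 8540 in WT, and the let-7 family member Mirlet7b, at 51940 ± 10900 FPKM in Fbxw7 KO and 51900 ± 5080 in WT. The ranges of all 3 over the 6 libraries overlap, so their order is not set beyond the spread. By CPM its place among all rows in single libraries went from 23rd in Fbxw7 KO replicate 3 to 36th in WT replicate 2. Another row, Mir145b, lies on the same chromosome outside the cluster and had 1, 1 and 1 counts in Fbxw7 KO replicates 1 to 3 and 6, 6 and 0 in WT replicates 1 to 3. It failed the filter and was not tested, and reads that align to more than one place are left out by the default of the counting program.

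**Figure D3:**
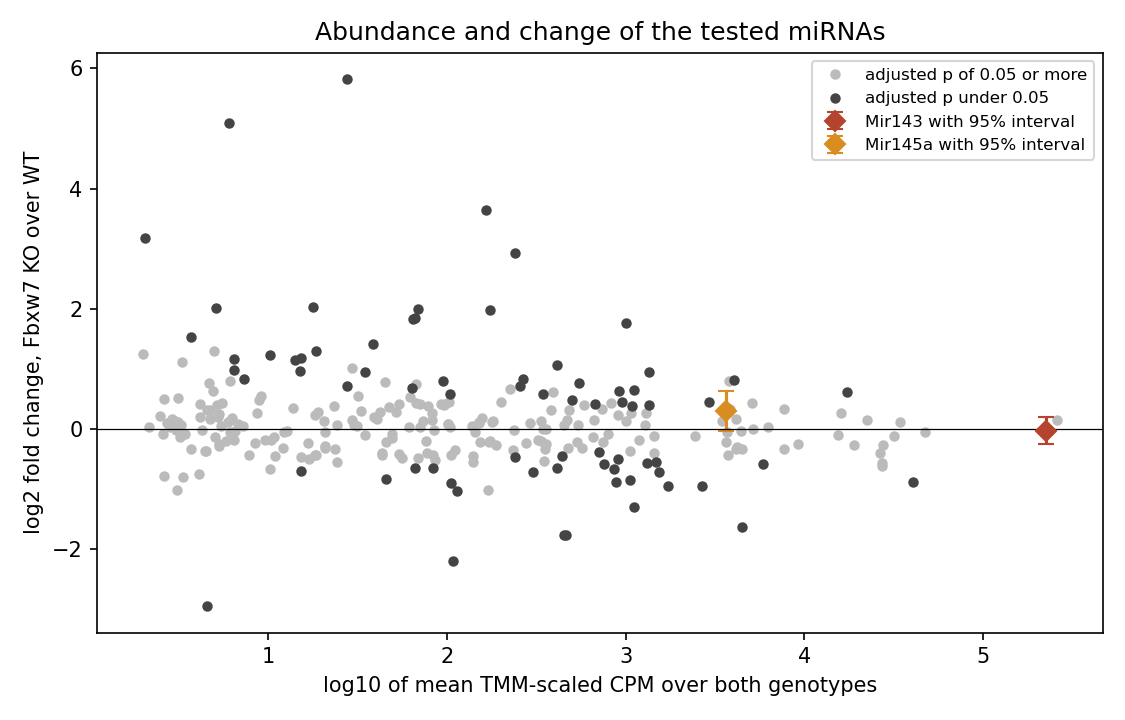
Log2 fold change of Fbxw7 KO over WT against the log10 of mean TMM-scaled CPM for the 283 tested miRNAs; dark points have an edgeR adjusted p under 0.05. Mir143 (red diamond) lies at −0.03 near the right edge and Mir145a (orange diamond) at 0.30, each with its 95% interval, and both intervals include 0.

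The hairpins did not share a pattern over the 6 libraries. The Pearson correlation of their log2 CPM was −0.16, which ranked Mir145a 104th of the 135 other tested miRNAs with at least 100 CPM by likeness to Mir143. The miRNAs most like Mir143 were Mir192 (r = 0.871), Mir99b (0.839), Mir196a-1 (0.832), Mir28c (0.762) and Mir423 (0.695), all with WT replicate 2 above WT replicate 1. None of these 5 passed the test between genotypes (log2 fold changes from −0.22 to −0.01). For Mir145a, picked after its values were seen, the most alike were Mir350 (r = 0.993), Mir15b (0.928), Mir3068 (0.911), Mir206 (0.900) and Mir34c (0.884). All 5 had their highest value in Fbxw7 KO replicate 3, as did Mir145a. Of them, Mir15b (log2 fold change 0.83, edgeR adjusted p = 0.0133) and Mir34c (0.82, adjusted p = 0.0154) passed the test between genotypes, and the others did not. These correlations describe 6 libraries that share a genotype split and 1 library that stands apart, and carry no test.

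Of 25 miRNAs known from the control of the smooth muscle phenotype, 24 matched a row and 14 could be tested, Mir143 and Mir145a included. Among these 14, 2 rose, 1 fell and 11 did not pass, beside 25.4% of all tested miRNAs that passed in either direction. The median log2 fold change was 0.28, against 0.05 over all tested miRNAs. Leaving out Fbxw7 KO replicate 3, a choice made after seeing the data, gave 2 higher and 3 lower, beside 16% higher and 11.1% lower of the 287 miRNAs then tested, since Mir100 (−0.52, adjusted p = 0.0108) and Mir221 (−0.66, adjusted p = 0.0108) then also passed the edgeR test.

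Mir29a, which represses collagen genes, rose. It had 19458, 21927 and 21402 CPM in Fbxw7 KO replicates 1 to 3, against 14576, 13468 and 12899 CPM in WT replicates 1 to 3 (edgeR log2 fold change 0.62 with SE 0.12, adjusted p = 0.00789, or 0.0512 if Fbxw7 KO replicate 2 is left out). Mir195a, of the miR-15 seed family, also rose, with 24.6, 20.0 and 34.3 CPM in Fbxw7 KO against 9.03, 15.5 and 7.80 CPM in WT (1.30, SE 0.31, adjusted p = 0.0169, and 0.0803 without WT replicate 1). Mir10a, encoded among the Hoxb genes, fell, with 29036, 29451 and 26200 CPM in Fbxw7 KO against 51276, 59100 and 46240 CPM in WT (−0.89, SE 0.13, adjusted p = 0.00179). For each of these 3 miRNAs, named because they passed, the genotypes were fully separate, as for 43.8% of all tested miRNAs in either direction.

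Other members of this list gave values that did not pass. Mir21a had a log2 fold change of 0.15 (edgeR adjusted p = 0.338). Mir221, known to favour smooth muscle cell growth, had −0.44 (adjusted p = 0.146), and its row has several blocks and overlaps another row. Mir100 had −0.40 and Mir26a-2 0.53 (adjusted p = 0.0850 each). Reads that match both Mir26a-2 and Mir26a-1 would be left out by the default of the counting program, so the counts of both rows are uncertain. Mir222, Mir155, Mir24-1 and Mir24-2 were among 8 rows at 0 counts in all 6 libraries, and 6 of these 8 overlap another row, where reads over both are left out by default, so a 0 there is no measure of the miRNA.

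**Figure D4:**
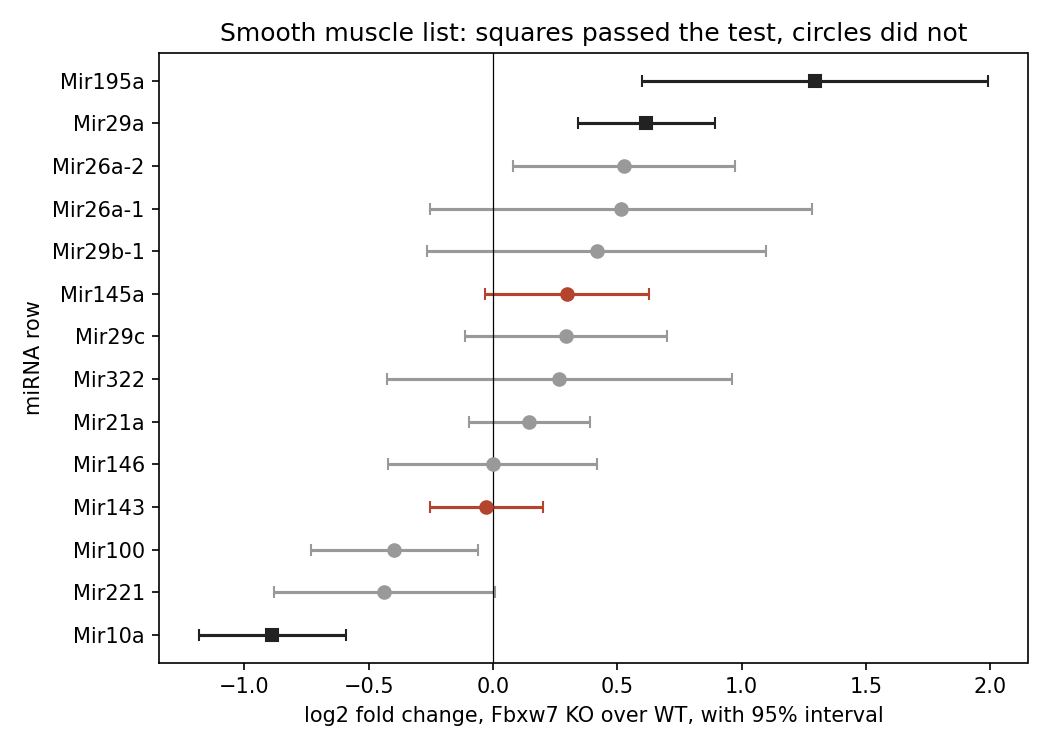
Log2 fold change of Fbxw7 KO over WT with its 95% interval for the 14 tested miRNAs of the smooth muscle list; squares passed the edgeR test, circles did not, and Mir143 and Mir145a are red. Mir195a (1.30) and Mir29a (0.62) lie above 0, Mir10a (−0.89) below, and the intervals of Mir143 and Mir145a include 0.

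In a list of muscle miRNAs built around targets of serum response factor, and not limited to established ones, the cluster held nearly all the reads that were counted. Of 12 matched rows, 7 stood at 0 counts in all libraries, and 4 of these (Mir1a-2, Mir1b, Mir133a-1 and Mir486) overlap another row, so that their 0 is no measure of the miRNA. Among the other 3 were the skeletal and heart muscle hairpins Mir1a-1 and Mir133a-2. Reads of both match a second hairpin elsewhere and can be left out for that, so the limit that 0 counts allow, up to 1.02 CPM in the smallest library, holds only for reads counted at these rows. Mir143 alone held 98.1% of the counts of this list in Fbxw7 KO and 98.5% in WT. Outside the cluster, 2 members could be tested and 0 passed with edgeR or with DESeq2, beside 25.4% of all tested miRNAs with edgeR. Of these 2, Mir206 alone had an unadjusted edgeR p under 0.05, beside 35.7% of all tested miRNAs. No result about the list can be read from 2 rows. Mir206, a skeletal muscle miRNA, had 221, 212 and 390 CPM in Fbxw7 KO replicates 1 to 3 and 137, 165 and 218 CPM in WT (log2 fold change 0.66, edgeR adjusted p = 0.11), and it passed in 2 of 16 alternatives, with no filter and with a replicate block. Without Fbxw7 KO replicate 3 it was 0.33 (adjusted p = 0.281 with edgeR). Fbxw7 KO replicate 3, the highest library for Mir145a, was also the highest for Mir206, and the share of the list outside the cluster was 0.0218% to 0.0409% in Fbxw7 KO and 0.0141% to 0.0230% in WT. The part of muscle-like cells in the level of Mir145a was not tested.

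In human cells, p53 is known to help Drosha cut the precursors of miR-143, miR-145 and miR-16-1. A list of these with Mir16-2 and the neighbouring hairpins Mir15a and Mir15b had 6 tested members. Of these, 3 rose, all of them added relatives, 0 fell (0 also with DESeq2 or at an unadjusted p under 0.05) and 3, Mir143, Mir145a and Mir16-1, did not pass, beside 15.2% higher and 10.2% lower of all tested miRNAs. Without Fbxw7 KO replicate 3, 2 were higher, beside 16% higher of the 287 miRNAs then tested. The median log2 fold change was 0.58, against 0.05 over all tested miRNAs. Mir15b and Mir16-2 are neighbours on chromosome 3, and Mir15a and Mir16-1 on chromosome 14. Members of this list are therefore not independent, and the rises cover fewer loci than hairpins. Mir15b had 277, 318 and 432 CPM in Fbxw7 KO replicates 1 to 3 and 202, 186 and 189 CPM in WT (0.83, SE 0.18, edgeR adjusted p = 0.0133, and 0.0576 without WT replicate 2). Mir16-2 rose by 0.80 (SE 0.20, edgeR adjusted p = 0.0181), a call lost if either Fbxw7 KO replicate 2 or WT replicate 2 is left out (largest adjusted p 0.0843). Mir15a rose by 0.72 (SE 0.22, adjusted p = 0.0415), a call lost in 7 of 16 alternatives, that without Fbxw7 KO replicate 3 included (0.0709). Mir16-1, which the human work names, had 0.44 (adjusted p = 0.189), and 0.18 (adjusted p = 0.461) without Fbxw7 KO replicate 3.

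The labelled cell type was set beside marker lists, which were chosen with earlier results of these data known. The fibroblast list holds the most abundant rows, Mir21a, Mir143, Mir27b, Mir10a and Mir148a. Its share therefore follows in part from that choice and is no check of the cell type. Fibroblast and mesenchymal miRNAs, for which 23 of 26 names matched a row, held 67.7% to 73.7% of counts in Fbxw7 KO and 66.0% to 67.8% in WT, and Mir143 made up 32.1% of that in Fbxw7 KO and 33.0% in WT. Of 18 tested members, 3 rose, 1 fell (Mir10a) and 14 did not pass, near the 25.4% of all tested miRNAs that passed, with a median log2 fold change of 0.16. Those that rose were Mir31 (1.77, edgeR adjusted p = 0.000666), Mir199b (0.65, adjusted p = 0.0203) and Mir29a, and without Fbxw7 KO replicate 3 there were 3 higher and 3 lower, beside 16% and 11.1% of all miRNAs then tested. Mir21a was the most abundant member of this list. Reads that match both Mir199b and Mir199a-1 would be left out by default, so the count of Mir199b is uncertain. Epithelial miRNAs held 0.00168% to 0.00618% of counts in Fbxw7 KO and 0.00211% to 0.00262% in WT, led by the skin miRNA Mir203, the only tested member, which passed in 1 of 16 alternatives. Mir203 had 59.3, 45.5 and 13.3 CPM in Fbxw7 KO replicates 1 to 3 and 18.7, 20.0 and 19.2 CPM in WT (log2 fold change 1.02, edgeR adjusted p = 0.133). Fbxw7 KO replicates 1 and 2 were above every WT library and Fbxw7 KO replicate 3 below them, and without that replicate the value was 1.45 (edgeR adjusted p = 0.000556). Neuronal miRNAs held 0.0457% to 0.0607% in Fbxw7 KO and 0.0615% to 0.0715% in WT, lower in every Fbxw7 KO library, led by Mir132, where 43.8% of single miRNAs did not overlap between genotypes in one direction or the other. Of 5 tested neuronal members, 0 passed with edgeR, 2 were lower at an unadjusted p under 0.05 and 2 were lower with DESeq2. Over all tested miRNAs, 35.7% had an unadjusted p under 0.05 (14.1% lower), and 11.3% were lower with DESeq2. The part of other cells in the levels of the cluster was not tested. Blood cell miRNAs, led by Mir451a, held 7.99e-05% to 0.000307% in Fbxw7 KO and 0.000216% to 0.000438% in WT, with Mir142 and Mir155 at 0 in rows that overlap others. Both endothelial rows, Mir126a and Mir126b, stood at 0 and overlap others.

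The nearest miRNA row, Mir378a, lies outside the cluster in the metabolic gene Ppargc1b and is known as a regulator of lipid metabolism. Related copies elsewhere in the genome make its count uncertain. It had 623, 630 and 827 CPM in Fbxw7 KO replicates 1 to 3 and 439, 476 and 308 CPM in WT replicates 1 to 3, without overlap (edgeR log2 fold change 0.77 with SE 0.19, adjusted p = 0.0195, or 0.0631 if WT replicate 1 is left out). Mir122, the liver miRNA on the other side, had 16.7, 23.1 and 6.66 CPM in Fbxw7 KO and 16.7, 19.3 and 17.7 CPM in WT, with overlap.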

How the data were processed

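Read counts per miRNA row were made by the authors with featureCounts 1.6.4, grouped by gene name with strand ignored, per the file headers. The FPKM values deposited by the authors equal the count divided by row length and by the library total times a TMM factor, in 671 rows with counts, within a relative difference of 8.66e-15. They were used for levels per length and in alternatives. The submitters' processing notes name mm10 as build, and among the tools deepTools, Cufflinks 2.2.1, SAMtools 1.5 and TopHat2 2.1.1.

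Fbxw7 KO and WT (n = 3 each) were compared with edgeR 4.0.16 in R 4.3.3 (TMM, filterByExpr with a minimum count of 10 and a minimum total of 15, robust glmQLFit, glmQLFTest, 2-sided), with Benjamini-Hochberg adjustment over all 283 tested rows, a threshold of 0.05, and the SE taken from the F statistic. The script was tested on simulated data. Shares and ratios had exact 2-sided permutation tests. Alternatives used other scaling factors, no filter, DESeq2 1.42.0, limma 3.58.1 on log2(FPKM + 1) or log2(FPKM + 0.1), a replicate block and leave-outs. The members and lists were chosen with earlier results of these data known. Named by rule were the cluster with Mir145b, the rows within 3 places of Mir143 in mean CPM, the nearest row on each side on the chromosome, the 5 tested rows of at least 100 CPM most correlated with Mir143, members of the smooth muscle and SRF lists that passed and each list's most abundant member. All other named rows were chosen with their values in view: the FPKM neighbours of Mir145a, the rows most like it, and further list members.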

Additional observations from a re-analysis of the deposited data

How the results depend on the processing

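In CPM Mir145a did not overlap between genotypes, so the leave-outs were unlikely to turn the sign of its log2 fold change. The log2 fold change of Mir145a was positive in all 16 alternatives (0.17 to 0.36, adjusted p 0.143 to 0.387) and never passed. That of Mir143 had adjusted p from 0.621 to 0.999. It turned positive with upper-quartile factors (0.011) and library totals alone (0.025), ran from −0.083 to 0.037 over the leave-outs, and the cause was not tested. The difference in Mir143 share turned to −0.71 percentage points without the counts of a chromosome 12 miRNA region (60 rows, 7.83% to 17.2% of counts), was 2.02 without Mir21a, and ran from −0.39 to 1.16 over the leave-outs. Over 7 alternatives each, the log2 ratio differences ran from −0.26 to −0.08 for Mir21a and from −0.39 to −0.20 for Mir145a. The replicate block cannot change these differences, and no leave-out can turn the sign for Mir145a, whose ratios did not overlap between genotypes. Over the scalings, the median of all 283 log2 fold changes was 0.00 to 0.10. The number of miRNAs past the threshold, 72, ran from 34 to 78 over the leave-outs (Fbxw7 KO replicate 2 left out 34, WT replicate 1 42, WT replicate 2 35). The replicate numbers showed no clear pairing of the libraries. Correlations of same-numbered deviations were −0.06, 0.13 and 0.15, and those of other pairs ran from −0.174 to 0.155. Deviations from means of 3 libraries cannot exclude a pairing. With a replicate block 76 miRNAs passed, Mir143 had −0.02 and Mir145a 0.29, and exact sign-flip tests gave p = 1 for the share difference of 0.39 points and p = 0.25, the smallest possible with 3 pairs, for the log2 ratio differences of −0.18 (Mir21a) and −0.31 (Mir145a).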
